A study of Trichoderma reesei with 18 samples.

Results

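The genes TR80186 and TR21168 of Trichoderma reesei, a filamentous fungus known for its cellulases, were deleted singly, and the 2 deletion mutants were compared with each other in constant light. The mutants, called Δ80186 and Δ21168, were made in the strain QM6a, which served as the wild type (WT). The 6 libraries compared were the 3 of Δ80186 in light and the 3 of Δ21168 in light, out of 18 in the series, and they were chosen by the strain and light condition in their titles. Mycelium of all strains had grown for 96 h at 28 °C in minimal medium on cellulose. Each group compared carried 1 of the deletions, so neither was an intact strain. The 3 WT libraries in light served as a further point of comparison, and the same mutants in constant darkness, with 3 libraries each, showed where the difference depended on illumination.

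The series title names TR80186 and TR21168 as MAP kinase kinases and the cascades as the HOG and the pheromone pathway, without saying gene by gene which belongs to which. A MAP kinase kinase is the middle kinase of a cascade and phosphorylates a MAP kinase, which in turn acts on transcription factors and other targets. In fungi the HOG cascade is known for the response to osmotic and other stress, and the pheromone cascade for mating and, in many filamentous species, for hyphal fusion and development. Light is known to alter development and the expression of cellulase genes in T. reesei. The direct comparison addressed how the transcriptomes of the 2 mutants differed when both were illuminated.

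Library totals were 11626426 to 13538215 counts in Δ80186 in light, 9047382 to 10699719 in Δ21168 in light and 11249966 to 15672321 in WT in light. The library numbers formed 2 series, 1 with Δ80186 and WT and 1 with Δ21168 alone, so in every direct comparison of the mutants the strain and the library series cannot be told apart, and no within-series value could be had. Nothing in the labels states whether replicate libraries were separate cultures, or whether a mutant was 1 transformant or several, so p-values measure the spread between these libraries, which may be technical. The biological coefficient of variation was 0.0766 in Δ80186 in light, 0.119 in Δ21168 in light and 0.111 in WT in light. Genes in the count table carry codes made of a letter, a number and a final W or C. None of its identifiers could be paired with a gene name or function, so genes are given by identifier and level alone. Levels are in reads or in CPM, the usual depth-scaled count, taken here on library sizes scaled by TMM, which aligns the bulk of the genes between libraries.

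A deleted gene should yield no reads, but the deleted genes' numbers are not paired with row identifiers either. TrD0367C had 0 reads in each of the 3 Δ80186 libraries in light, against 1135, 1308 and 1076 reads in the Δ21168 libraries and 1706, 2269 and 1715 reads in WT. TrE0746W had 1163, 1068 and 987 reads in Δ80186 in light, against 0 reads in all 3 Δ21168 libraries and 1406, 1710 and 1617 reads in WT. In light each identifier was silent in 1 mutant and read in every library of the other and of WT. In darkness TrD0367C had 1, 1 and 2 reads in Δ80186, and TrE0746W had 0 reads in all 3 Δ21168 libraries. Both identifiers were found by searching for such a loss over light and darkness, with up to 3 reads allowed in a library. This makes them no independent check of the labels. With a floor of 3 reads over a group at 0, TrD0367C was at least 1389-fold lower in Δ80186 than in Δ21168 (889-fold without Δ80186 replicate 1), and TrE0746W at least 906-fold higher (572-fold without Δ21168 replicate 2). Floors and intervals cover counting error only. The only rows named in words were those of the mating type locus, which governs sexual development. The row mat1-1-1 had 0, 0 and 0 reads in Δ80186 in light, 0, 1 and 2 reads in Δ21168 and 1, 1 and 0 reads in WT, and mat1-1-2 and mat1-1-3 had 0 reads in every library. With at most 2 reads of these rows in any library, no comparison of the mutants was made for them, and the reason for the absence of reads was not tested.

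The mutants differed at most of the measured genes. Of 9079 genes tested, 5679 (62.6%) had an adjusted p under 0.05 in edgeR's quasi-likelihood test, 2770 of them (30.5%) higher and 2909 (32.0%) lower in Δ80186 than in Δ21168. A fold of at least 2 was reached by 2150 genes (23.7%), of which 1032 (11.4%) were higher and 1118 (12.3%) lower. A fold of at least 4 was reached by 446 higher and 468 lower genes, and a fold of at least 16 by 105 higher and 85 lower genes. Higher genes made up 48.0% to 48.8% of the genes called at the lower thresholds and 55.3% at a fold of at least 16. With library totals in place of TMM scaling, 2278 genes were higher and 3494 lower, and the median log2 fold change of all genes was −0.15, against −0.03 with TMM. In bulk mycelium, fewer cells with a transcript and less of it per cell cannot be told apart.

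The size of the difference stood well outside the spread between libraries. The median absolute difference over genes, in log2 units, was 0.491 between the means of Δ80186 and Δ21168 in light. Between single libraries of a group it was 0.0977 to 0.129 in Δ80186 and 0.142 to 0.169 in Δ21168, whereas between single libraries of the 2 mutants it was 0.479 to 0.555. The median difference between group means was 0.439 for Δ80186 and WT, which share a library series, and 0.287 for Δ21168 and WT, which do not. In the same order, 5328 genes (58.7%) and 3635 genes (40.0%) were called against WT in light. These comparisons share libraries and are given side by side only.

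**Figure D1:**
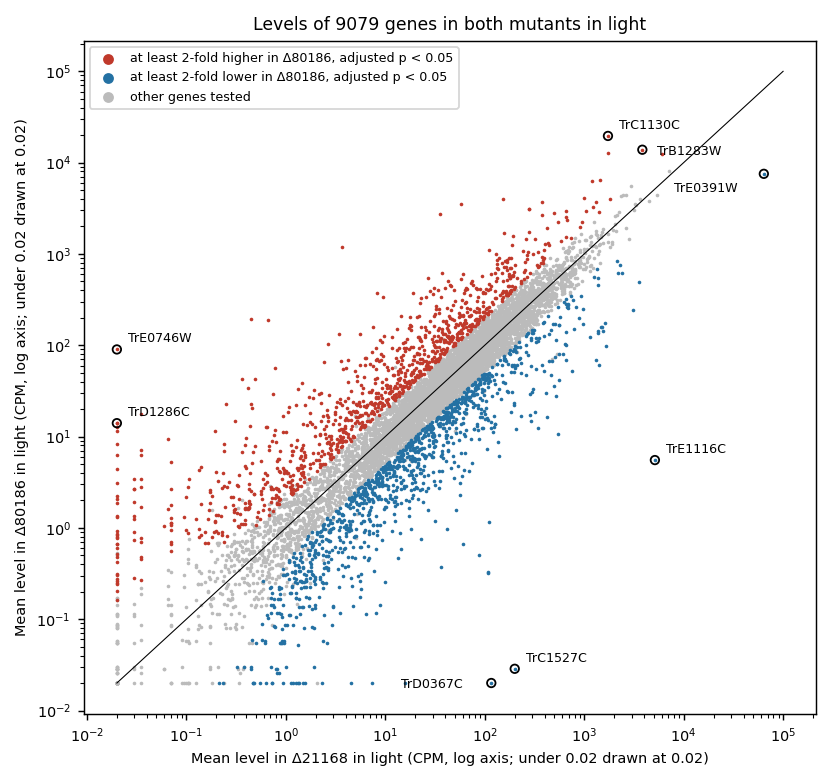
Mean level of each of 9079 genes in light, in CPM on log axes, with Δ80186 on the y axis and Δ21168 on the x axis. The 1032 red genes lie above and the 1118 blue genes below the line of equal level, and ringed genes are named in the text.

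Of the 3400 genes without a call, 2442 averaged at least 5 CPM in the higher mutant. For 2276 of these (93.2%) the 95% interval of the difference lay within 2-fold either way, and for 1877 (76.9%) within 1.5-fold. The other 958 were under 5 CPM in both mutants. The share of genes called was 30.9% under 1 CPM, 55.7% between 1 and 10 CPM, 64.8% between 10 and 100 CPM, 73.6% between 100 and 1000 CPM and 77.2% above.

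Abundant transcripts were not the same in the mutants. Of the 100 most abundant genes of each mutant in light, 60 were shared. Of the 140 in either list, 116 were called, 71 higher and 45 lower in Δ80186, and folds of 2 or more were seen in 41 of the higher and 22 of the lower ones. Of the 101 genes averaging 1000 CPM or more, 30 passed the same threshold in the higher and 9 in the lower direction. Called genes made up 77.2% of these 101, beside 62.6% of all genes tested. Those called with a fold of at least 2 made up 38.6% of the 101, beside 23.7% of all genes tested. The lists of the 100 most abundant genes came from the libraries compared, which favours genes that differ between them. The most abundant gene of a library held 1.70% to 2.14% of its counts in Δ80186, 6.03% to 7.17% in Δ21168 and 4.11% to 4.45% in WT.

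TrE0391W was the most abundant of the genes that were lower in Δ80186. It had 6606, 8525 and 7490 CPM in Δ80186 in light, against 57663, 68915 and 65513 CPM in Δ21168 and 45986, 41433 and 43172 CPM in WT. The 3 groups did not overlap, and Δ80186 stood far below the other 2. The log2 fold change between the mutants was −3.09 ± 0.42 (SE, n = 3 each; edgeR adjusted p = 2.9e-05). In darkness TrE0391W had only 23.1, 17.7 and 17.5 CPM in Δ80186 and 460, 326 and 146 CPM in Δ21168, again lower in Δ80186 than in Δ21168 (−4.00 ± 0.45 SE, edgeR adjusted p = 1.3e-05). WT in darkness had 34.9, 13.8 and 11.7 CPM. There WT overlapped Δ80186 and lay below Δ21168, unlike in light, where Δ80186 stood far below WT. The difference between the mutants in light was not shown to be another than in darkness (interaction 0.91 ± 0.56 SE, edgeR adjusted p = 0.21).

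TrE1116C, the other abundant gene lower in Δ80186, showed the widest gap among abundant genes named here. Its levels were 7.06, 4.89 and 4.64 CPM in Δ80186 in light, against 4730, 5483 and 5208 CPM in Δ21168 and 1951, 2061 and 2285 CPM in WT. It was a low transcript in Δ80186 and an abundant one in both other strains. Its log2 fold change was −9.85 ± 0.36 (SE, n = 3 each; edgeR adjusted p = 3.4e-11). In darkness it had 181, 147 and 119 CPM in Δ80186 and 326, 349 and 695 CPM in Δ21168, a log2 fold change of −1.62 ± 0.25 SE. The interaction was −8.23 ± 0.40 SE (edgeR adjusted p = 4.9e-09).

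TrC1130C was the most abundant gene that was higher in Δ80186. It had 22451, 18988 and 17367 CPM in Δ80186 in light, against 1633, 1904 and 1666 CPM in Δ21168 and 17589, 16619 and 12275 CPM in WT. The libraries of WT overlapped those of Δ80186, and those of Δ21168 stood apart below. Between the mutants the log2 fold change was 3.50 ± 0.22 (SE, n = 3 each; edgeR adjusted p = 4.8e-09). Its log2 fold change in darkness was 1.77 ± 0.21 SE, from 15711, 17364 and 16438 CPM in Δ80186 and 6573, 4685 and 3296 CPM in Δ21168.

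TrB1283W was also abundant and higher in Δ80186 in light, but its difference had the opposite sign in darkness. In light it had 13040, 14370 and 14139 CPM in Δ80186, against 3598, 4343 and 3591 CPM in Δ21168 and 2089, 1640 and 2156 CPM in WT. In darkness it had 3176, 3503 and 4570 CPM in Δ80186, against 8184, 6280 and 7259 CPM in Δ21168. The mutants did not overlap in either condition. The log2 fold change was 1.85 ± 0.14 (SE, n = 3 each; edgeR adjusted p = 4.8e-09) in light and −0.95 ± 0.13 SE (edgeR adjusted p = 2.5e-05) in darkness, with an interaction of 2.80 ± 0.19 SE (edgeR adjusted p = 1.1e-08).

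Some genes were read in 1 mutant and hardly at all in the other. With at least 10 reads in each of 3 libraries of a mutant and at most 1 read over the 3 of the other, 26 genes were read in Δ80186 only and 10 in Δ21168 only. The Δ21168 libraries were the shallower ones, and with at least 1 CPM in place of 10 reads, a rule chosen after the data were seen, the counts were 23 and 10. The limit of 1 read over the other mutant was kept in reads, and shallower libraries meet it more easily. Of the 26 genes, 4 had at least 10 reads in each WT library in light and 2 had none, and of the 10 genes, 3 had at least 10 reads in each and 1 had none. In darkness 15 of the 26 had at least 30 reads over the Δ80186 libraries and 10 had as many over the Δ21168 libraries. Those 10 were thus silent or nearly so in Δ21168 in light but read in it in darkness.

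After TrD0367C and TrE0746W, TrC1527C had the largest fitted fold among lower genes and TrD1286C among higher genes, of those called without overlap and with at least 5 CPM in the higher mutant. Fitted folds against 0 or 1 read depend on the small count that edgeR adds, so their order is not one of measured folds. TrC1527C had 0, 0 and 1 read in Δ80186 in light, against 1829, 1856 and 2317 reads in Δ21168 and 310, 1133 and 1412 reads in WT. Dark libraries of the mutants held between 1 and 6 reads of TrC1527C each, so its high levels were those of Δ21168 and WT in light. Its pooled ratio between Δ21168 and Δ80186 was 7106 (95% counting interval 1275 to 280735), and 4547 without Δ80186 replicate 1. Without Δ80186 replicate 3, which held the read, TrC1527C was at least 1598-fold lower in Δ80186. TrD1286C had 154, 161 and 184 reads in Δ80186 in light, against 0 in each Δ21168 library and 16, 49 and 39 reads in WT. It was at least 140.5-fold higher in Δ80186 (88.7-fold without Δ21168 replicate 2). In darkness its levels were 3.97, 4.21 and 2.99 CPM in Δ80186 and 0.102, 0 and 0.329 CPM in Δ21168, a difference between the mutants in the same direction (log2 fold change 4.41 ± 0.61 SE, edgeR adjusted p = 3.3e-05). WT in darkness had 9.18, 18.6 and 8.07 CPM of TrD1286C, above Δ80186, whereas in light WT lay below Δ80186.

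**Figure D2:**
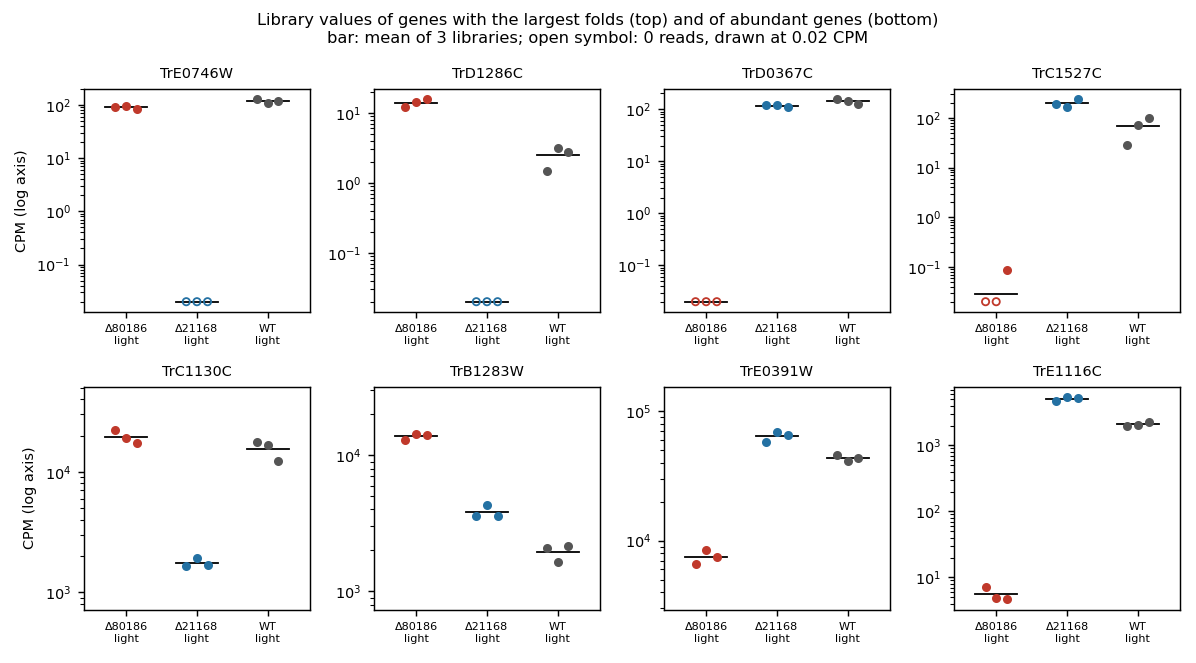
Level in light of 8 genes in each library, in CPM on a log axis, with Δ80186, Δ21168 and WT from left to right in each panel; bars are means of 3 libraries and open symbols mark 0 reads. TrE0746W and TrD0367C were each silent in 1 mutant, and the libraries of the mutants did not overlap for any of the 8 genes.

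The level of WT was set beside the mutants for genes that differed at least 2-fold and whose 3 values in each mutant did not overlap. Of all genes tested, 69.8% had no overlap between the mutants. Of 1016 genes higher in Δ80186 than in Δ21168, WT lay between the mutants without overlap for 383, below both for 162 and above both for 52. WT overlapped only Δ21168 for 313, only Δ80186 for 94 and both for 12. Among 1092 genes lower in Δ80186, WT lay between the mutants for 431, above both for 63 and below both for 32. It overlapped only Δ21168 for 356, only Δ80186 for 185 and both for 25. In each direction WT thus met the range of Δ21168 alone more often than that of Δ80186 alone, as a count of these libraries and with no test. A narrower range is met less often, and the biological coefficient of variation in light was 0.0766 in Δ80186 against 0.119 in Δ21168. The part of this unequal spread in the counts was not tested.

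Among genes with WT between the mutants, TrF0130W had the largest fitted fold after TrD1286C in the higher direction, and TrF0507C after TrC1527C in the lower direction. TrF0130W had 210, 147 and 144 reads in Δ80186 in light, against 0 in each Δ21168 library and 3, 6 and 2 reads in WT. It was at least 141-fold higher in Δ80186 than in Δ21168 (89.1-fold without Δ21168 replicate 2), and WT was close to the silent mutant. TrF0507C had 0 reads in each Δ80186 library in light, against 129, 168 and 181 reads in Δ21168 and 19, 86 and 88 reads in WT. It was at least 189-fold lower in Δ80186 (121-fold without Δ80186 replicate 1). In darkness both genes had 5 reads or fewer in every mutant library.

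The same comparison in darkness, which shares no library with the one in light, gave fewer calls. There 4010 genes (44.2%) were called, 2101 (23.1%) higher and 1909 (21.0%) lower in Δ80186 than in Δ21168. Folds of 2 or more were found for 1207 genes (13.3%), with 585 (6.44%) in the higher and 622 (6.85%) in the lower direction. The dark libraries of Δ21168 spread more than any other group, with a biological coefficient of variation of 0.234, and its part in the lower count was not tested. The median absolute log2 difference between the means of the mutants, which does not rest on calls, was 0.491 in light and 0.306 in darkness.

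Of the 1032 genes at least 2-fold higher in Δ80186 in light, 564 (54.7%) were also called higher in darkness and 82 (7.95%) were called lower, beside 23.1% and 21.0% of all genes tested. The remaining 386 had no call in darkness. Of the 1118 genes at least 2-fold lower in light, 518 (46.3%) were also called lower in darkness and 100 were called higher. The median log2 fold change of the higher genes was 1.83 in light and 0.61 in darkness, and that of the lower genes was −1.76 in light and −0.53 in darkness, beside −0.03 and 0.01 for all genes. These genes were chosen by their fold in light, so a smaller fold in the other libraries is in part fixed by the choice. In all, 92 genes differed at least 2-fold in opposite directions in light and in darkness.

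The difference between the mutants was tested for dependence on light as an interaction, the log2 fold change in light minus that in darkness. It was called for 3977 genes (43.8%), positive for 1961 (21.6%) and negative for 2016 (22.2%), and 1561 genes (17.2%) had an interaction of 2-fold or more, 789 (8.69%) positive and 772 (8.5%) negative. An offset that the library series added equally in light and in darkness would cancel in this term. With library totals in place of TMM the calls were 1497 positive and 2592 negative, so the balance of signs rests on the scaling. That scaling moved the median interaction of all genes to −0.15 log2 units, against −0.02 with TMM.

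**Figure D3:**
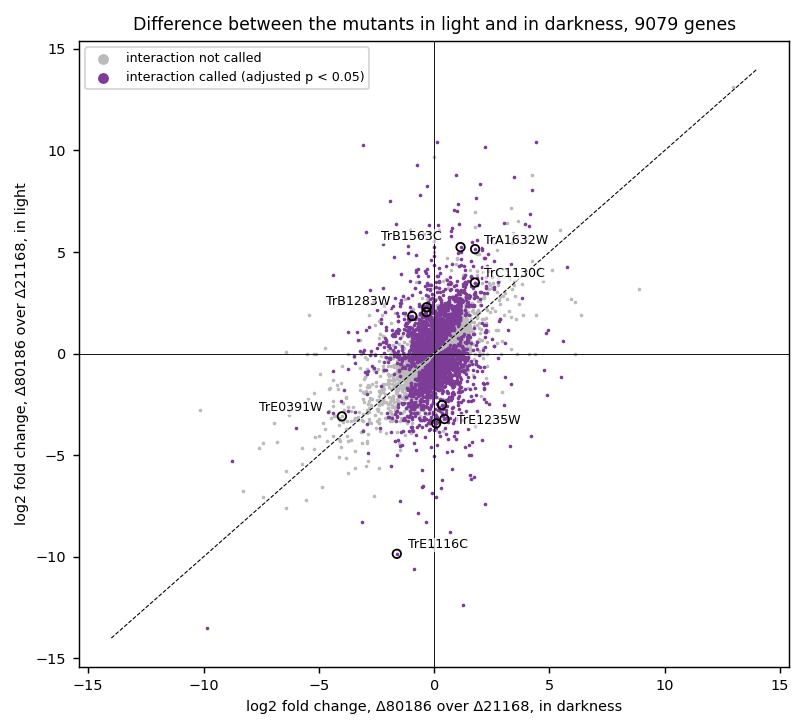
Log2 fold change of Δ80186 over Δ21168 in light (y axis) against that in darkness (x axis) for 9079 genes, with the 3977 genes called for interaction in purple and the line of equal change dashed. Ringed genes are named in the text, and TrE0391W lies near the line while TrE1116C lies far below it.

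TrB1563C and TrA1632W had the smallest adjusted p among positive interactions. TrB1563C had 109, 96.5 and 102 CPM in Δ80186 in light, against 1.90, 3.50 and 2.60 CPM in Δ21168 and 21.3, 22.6 and 24.2 CPM in WT. In darkness it had 103, 106 and 109 CPM in Δ80186 and 43.3, 44.6 and 55.4 CPM in Δ21168. Its level in Δ80186 was nearly the same in light as in darkness, while Δ21168 and WT were lower in light. Between the mutants it differed by a log2 fold change of 5.24 ± 0.15 SE in light and 1.15 ± 0.11 SE in darkness, with an interaction of 4.10 ± 0.18 SE (n = 3 each; edgeR adjusted p = 8.8e-11). For TrA1632W the libraries in light gave 315, 358 and 342 CPM in Δ80186, 9.80, 11.0 and 7.81 CPM in Δ21168 and 125, 112 and 115 CPM in WT. Those in darkness gave 479, 454 and 441 CPM in Δ80186 and 152, 136 and 113 CPM in Δ21168. Here Δ80186 was also lower in light than in darkness, but by less than Δ21168, and the interaction was 3.37 ± 0.15 SE (edgeR adjusted p = 1.0e-10).

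Negative interactions were led by TrB1415W and TrE1235W. TrB1415W had 123, 157 and 147 CPM in Δ80186 in light, against 1383, 1590 and 1629 CPM in Δ21168 and 1364, 1304 and 1310 CPM in WT. All libraries in darkness were low and close together, at 98.9, 105 and 104 CPM in Δ80186, 98.8, 97.9 and 92.4 CPM in Δ21168 and 98.7, 101 and 91.9 CPM in WT. High levels in light were thus found in Δ21168 and WT but not in Δ80186. Between the mutants its log2 fold change was −3.43 ± 0.09 SE in light (edgeR adjusted p = 5.8e-15) and 0.09 ± 0.08 SE in darkness (edgeR adjusted p = 0.41), with an interaction of −3.52 ± 0.12 SE (n = 3 each; edgeR adjusted p = 2.5e-12). TrE1235W had 119, 124 and 125 CPM in Δ80186 in light, against 977, 1309 and 1125 CPM in Δ21168 and 615, 493 and 598 CPM in WT. In darkness it had 96.2, 90.4 and 89.0 CPM in Δ80186 and 60.9, 65.4 and 75.4 CPM in Δ21168, the opposite order. Its interaction was −3.67 ± 0.15 SE (edgeR adjusted p = 2.6e-11).

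Other genes with a call in the opposite direction in darkness were TrG1096W and TrD1302W, higher in Δ80186 in light, and TrB1688W, lower in Δ80186 in light. TrG1096W had 180, 199 and 180 CPM in Δ80186 in light against 38.2, 38.3 and 38.2 CPM in Δ21168. In darkness the values were 110, 107 and 114 CPM in Δ80186 and 112, 141 and 160 CPM in Δ21168, where the gap was small (log2 fold change −0.32 ± 0.09 SE, edgeR adjusted p = 0.0097). TrD1302W in light had 127, 133 and 119 CPM in Δ80186 and 29.6, 34.9 and 27.2 CPM in Δ21168. In WT TrD1302W had 103, 119 and 114 CPM, close to Δ80186. TrB1688W in light had 178, 170 and 162 CPM in Δ80186 and 867, 1139 and 929 CPM in Δ21168, with WT between at 584, 530 and 491 CPM. Each of these 3 reversals came with a small fold in darkness, the largest of them 0.34 log2 units for TrB1688W.

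**Figure D4:**
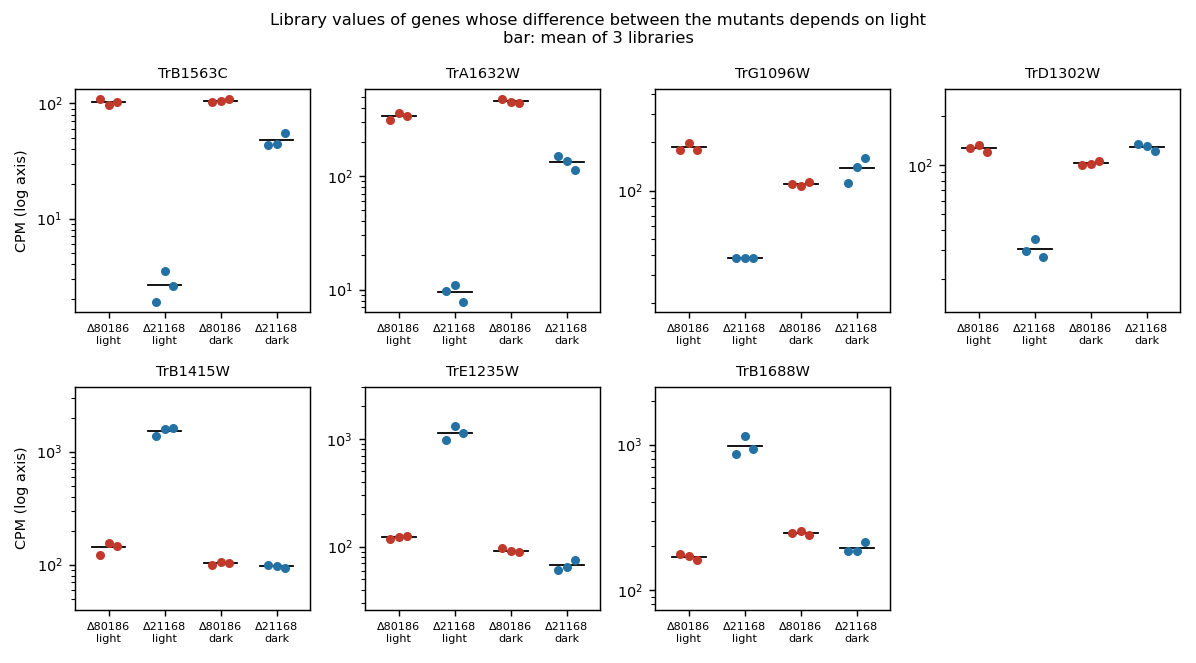
Level of 7 genes in each library, in CPM on a log axis, with Δ80186 and Δ21168 in light and then in darkness from left to right; bars are means of 3 libraries. Genes in the upper panels were at their lowest, and genes in the lower panels at their highest, in Δ21168 in light.

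Genes with neighbouring numbers tended to differ alike between the mutants. Whether the letter of an identifier stands for a chromosome, the number for the order along it and W or C for the strand is not stated in the sources used here. Steps were counted among tested genes in order of number within a letter, so untested numbers were skipped. The log2 fold change in light of a gene and of the next tested gene had a Pearson r of 0.175 (9072 pairs of genes). It was 0.0754 for genes 2 steps apart and 0.00 for genes 100 steps apart. These are correlations across genes, which are not independent replicates. After a gene at least 2-fold higher in Δ80186, the next was also at least 2-fold higher in 21.7% of cases, against 11.9% at 100 steps, and for lower genes these shares were 23.8% and 12.4%. Between letters A to G, genes at least 2-fold higher made up 10.5% (letter C) to 13.98% (letter G) and genes at least 2-fold lower 10.2% (letter G) to 15.6% (letter F).

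Runs of at least 5 consecutive tested genes called in the same direction numbered 73. They held 177 genes in 31 runs higher and 250 genes in 42 runs lower in Δ80186. Of all genes tested, 30.5% and 32.0% were called in those directions, so some runs would arise without any likeness of neighbours. How many was not tested. The longest run of higher genes reached from TrE0282C to TrE0296W and held 10 genes, 7 of them at least 2-fold higher, with a median log2 fold change of 1.83. TrE0282C, at its start, had 129, 121 and 116 CPM in Δ80186 in light, against 70.5, 79.9 and 67.5 CPM in Δ21168 and 112, 104 and 95.2 CPM in WT (log2 fold change 0.75 ± 0.09 SE, edgeR adjusted p = 8.5e-07). TrE0296W, at its end, was a low gene with 24, 26 and 15 reads in Δ80186 in light, against 2, 0 and 2 reads in Δ21168 and 8, 9 and 5 reads in WT. Its log2 fold change was 3.67 ± 0.60 SE (edgeR adjusted p = 4.3e-05), and 3.08 without Δ21168 replicate 2. The 3 genes next to either end of the run had no call higher in Δ80186.

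The longest run of lower genes reached from TrB1377C to TrB1388W and held 11 genes, of which 4 were at least 2-fold lower, with a median log2 fold change of −0.80. TrB1388W had 10.0, 13.5 and 13.3 CPM in Δ80186 in light, against 271, 408 and 357 CPM in Δ21168 and 266, 248 and 261 CPM in WT. It was far below both other strains, with a log2 fold change between the mutants of −4.82 ± 0.19 SE (edgeR adjusted p = 1.4e-11). In darkness TrB1388W had 39.4, 41.0 and 46.3 CPM in Δ80186, against 21.4, 28.6 and 23.8 CPM in Δ21168 and 611, 410 and 478 CPM in WT, so its order in the mutants was the opposite. The run was broken when single libraries were left out, since TrB1381C or TrB1383W, named here after their values were seen, lost the call except when Δ21168 replicate 3 was left out, so that 9 to 11 members were called. TrB1377C, the first of the run, had 11.1, 13.2 and 12.5 CPM in Δ80186 in light and 26.9, 20.6 and 27.6 CPM in Δ21168 (log2 fold change −1.03 ± 0.19 SE, edgeR adjusted p = 0.00015).

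When only genes called with a fold of at least 2 were counted, 10 runs of at least 5 remained, 4 higher and 6 lower. The longest run of such higher genes had 6 members, from TrE0011C to TrE0016W. TrE0011C had 70, 110 and 104 reads in Δ80186 in light, against 6, 6 and 0 reads in Δ21168 and 660, 406 and 212 reads in WT. TrE0016W had 55, 119 and 74 reads in Δ80186 in light, against 1, 0 and 0 reads in Δ21168 and 257, 153 and 72 reads in WT. Both genes were hardly read in Δ21168. WT lay above Δ80186 without overlap for TrE0011C and overlapped it for TrE0016W. The log2 fold change of TrE0011C between the mutants was 4.30 ± 0.67 SE (edgeR adjusted p = 4.9e-05). The pooled ratio of TrE0016W was 209.5 (95% counting interval 37.3 to 8306), 132 without Δ21168 replicate 2, and at least 47.9 without Δ21168 replicate 1, which held the read.

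Of the 6 runs of 5 lower genes with a fold of at least 2, the one from TrF0031C to TrF0035W had the largest median fold and was taken after the values were seen. TrF0031C had 7, 9 and 12 reads in Δ80186 in light, against 68, 43 and 35 reads in Δ21168 and 25, 25 and 45 reads in WT (log2 fold change −2.62 ± 0.42 SE, edgeR adjusted p = 3.1e-05). TrF0033C, in the middle, had 0 reads in each Δ80186 library, against 78, 65 and 78 reads in Δ21168 and 7, 25 and 34 reads in WT, and was at least 87.2-fold lower (55.8-fold without Δ80186 replicate 1). TrF0035W had 0, 2 and 2 reads in Δ80186, against 35, 35 and 36 reads in Δ21168 and 1, 10 and 17 reads in WT. Its log2 fold change was −4.85 ± 0.83 SE (edgeR adjusted p = 6.8e-05), and −4.26 without Δ80186 replicate 1. No library of Δ80186 overlapped one of Δ21168 for these 3 genes.

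**Figure D5:**
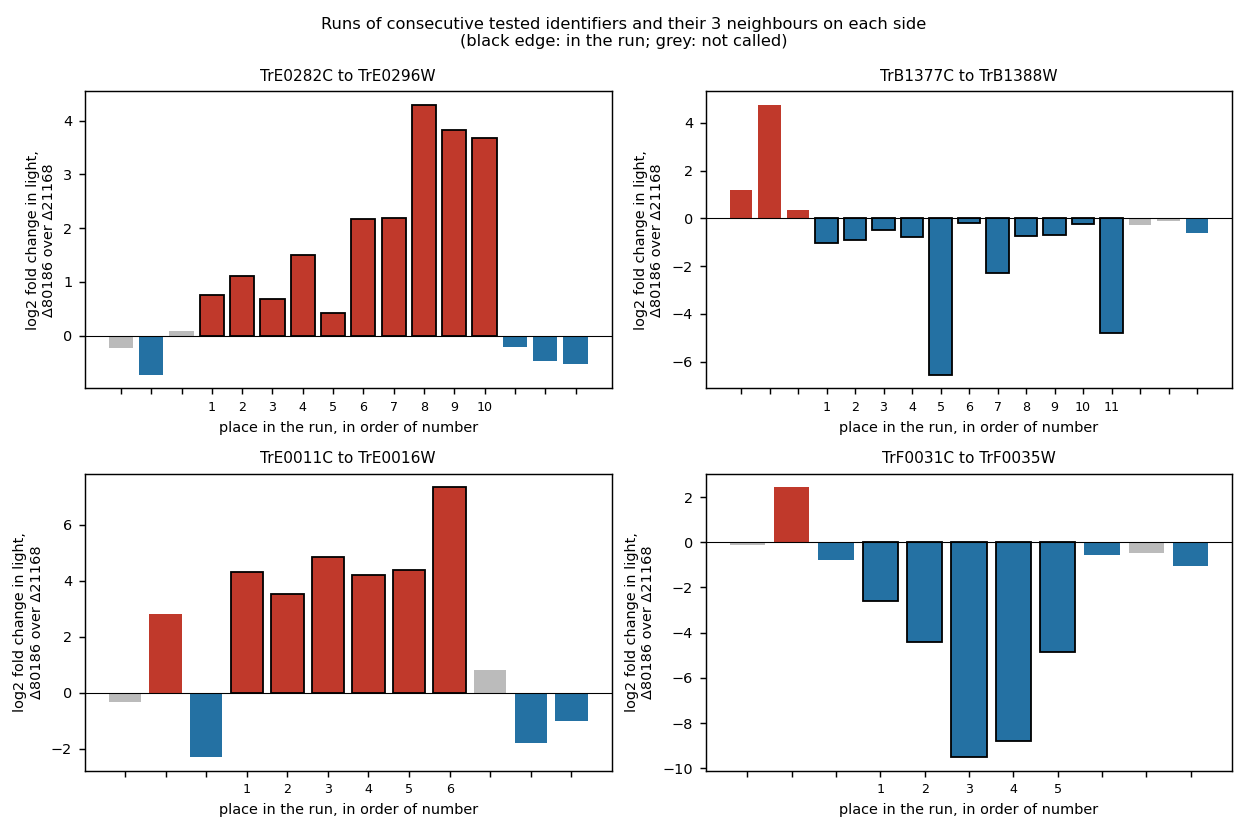
Log2 fold change in light of Δ80186 over Δ21168 (bars, y axis) for 4 runs of consecutive tested genes and the 3 genes on each side, in order of number (x axis). Red and blue bars were called higher and lower in Δ80186, grey bars had no call, and bars with a black edge belong to the run.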

How the data were processed

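RNA of mycelium was sequenced in 18 libraries, strand-specific and depleted of ribosomal RNA per the labels' protocols. The authors deposited a table of raw counts, whole numbers per gene and library, with 10879 rows. The aligner was HISAT2 2.2.1 per the submitters' processing notes, and a published transcript set of QM6a is named in the series design. The deposited counts carry the label featurecounts, which names the counting tool. For the genome build, the strand setting of the counting and reads with several alignments, the sources used here give nothing. Reads of overlapping, antisense or near-identical genes therefore cannot be told apart. Sample descriptions matched columns to samples, and 0 columns were left out. None of the identifiers was found in the reference table of 9116 genes, and no sequence was used.

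Counts were analysed with edgeR 4.0.16 in R 4.3.3. The function filterByExpr (by group, minimum count 10, minimum total 15) left 9079 genes and removed 1800. All 18 libraries entered 1 robust quasi-likelihood fit with TMM factors and group means (12 residual degrees of freedom). Contrasts were Δ80186 minus Δ21168 in light, in darkness and their difference. P-values were adjusted by Benjamini-Hochberg over all genes tested and called under 0.05. SE is the absolute log2 fold change over the square root of F and understates the error of genes with few reads. Folds against a group at 0 use a floor of 3 reads over the group, and ratios against 1 to 3 reads have 95% counting intervals.

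At most 2 identifiers higher and 2 lower were named per rule. Candidates were called, without overlap and with at least 5 CPM in the higher group. The rules took the largest fold, the highest level with a fold of at least 2 and the smallest adjusted p of the interaction. Others took the opposite call in darkness and WT between the mutants. From the longest runs the ends and some other members were named, with no minimum level. The comparison, the rules and the alternatives were chosen with earlier results of these data known. Scripts were checked on simulated data. Alternatives were library totals, DESeq2 1.42.0, other filters, fewer libraries, a replicate block and a test against a fold of 1.5. Replicate libraries differed beyond counting noise, so none was counted as a duplicate.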

Additional observations from a re-analysis of the deposited data

Results flagged for a closer look

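The difference between Δ80186 and Δ21168 was not the same in light as in darkness for 3977 genes by edgeR's interaction test, and each value here is the log2 fold change in light minus that in darkness for a gene named in the report. All have an adjusted p under 0.05. Among genes higher in Δ80186 in light and abundant there, the interaction was 1.73 for TrC1130C and 2.80 for TrB1283W. It was 4.10 for TrB1563C, 3.37 for TrA1632W, 2.61 for TrG1096W and 2.38 for TrD1302W. Among genes lower in Δ80186 in light it was −8.23 for TrE1116C, −3.52 for TrB1415W, −3.67 for TrE1235W and −2.87 for TrB1688W.

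In the runs of neighbouring identifiers it was 2.01 for TrE0294W, 3.0 for TrE0011C and 6.32 for TrE0016W among higher genes. Among lower genes it was −1.84 for TrB1377C, −5.60 for TrB1388W, −2.82 for TrF0031C, −9.46 for TrF0033C and −5.40 for TrF0035W.

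Several of these genes had few or no reads in a group, so the fitted value depends on the small count that edgeR adds and gives no precision. This holds for TrE0016W, TrF0033C and TrF0035W above, and for TrD1286C at 6.02, TrF0130W at 10.31, TrC1527C at −13.60 and TrF0507C at −9.74. For TrD0367C the value of −3.62 rests on 0 reads in Δ80186 in light and 1, 1 and 2 reads in Δ80186 in darkness.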

How the results depend on the processing

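The count of 5679 genes called in light was 2453 when a fold of at least 1.5 was tested for, and 5186 to 5520 when single libraries were left out. Library totals gave 5772, DESeq2 5743, no filter 5733, a stricter filter 5296 and a fit of only the groups compared 5725. For darkness (4010) these settings gave 2951 to 4056 and leaving out single libraries 3266 to 4115. For the interaction (3977) leaving out single libraries gave 3519 to 4048. No gene called both as reported and under one of these settings changed sign. In light replicate numbers did not pair the libraries, as same-numbered libraries of the mutants deviated with correlations of 0.0631, −0.0662 and −0.0467. In darkness these correlations were −0.445, 0.0167 and −0.245, and those between libraries of unlike number were −0.282 to 0.37. With the replicate block 5660 genes were called in light, 3915 in darkness and 3868 for the interaction. Genes read in Δ80186 only numbered 28 to 38 and those in Δ21168 only 11 to 15 when single libraries were left out, and the 10 genes in Δ21168 became 5 with a minimum of 20 reads. The 73 runs became 174 when 1 gene without a call was allowed within a run, and 10 with a fold of at least 2. WT lay between the mutants for 814 genes by overlap and for 591 by adjusted p. All named genes outside the runs kept their direction and call under each alternative. In the runs TrB1381C and TrB1383W lost the call when single libraries were left out, and 8 members did in the test against 1.5-fold. Depth limits genes under 5 CPM most, and with 3 libraries a group and strain tied to library series, no setting separates the series from the strain.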
